A study of Mus musculus with 8 samples.

Results

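Oligo2b is 1 of 8 clusters to which the authors assigned the oligodendrocytes of the aged mouse brain. Its members were all cells that carry this cluster name in the deposited oligodendrocyte table, 2765 of 15604 cells, and their counts of unique molecular identifiers (UMIs, each standing for 1 captured RNA molecule) were summed within each of 8 droplet libraries. The other clusters are Oligo1a, Oligo1b, Oligo1c, Oligo2a, Oligo2c, age-related oligodendrocytes (ARO) and interferon-responsive oligodendrocytes (IRO). All mice were 24-month-old males. Wild-type C57BL/6 mice (C57BL/6J in the study's methods) gave 2 gray matter and 2 white matter libraries, and Rag1-/- mice, which carry the Rag1tm1Mom allele and make no mature B or T lymphocytes but keep their innate immune cells, gave 1 gray matter and 3 white matter libraries. Gray matter was frontal cortex, and white matter was optic tract, medial lemniscus and corpus callosum. The labels name an NOD.129S7(B6) background for the Rag1-/- mice whereas the study's methods name a B6.129S7 line, and the background cannot be settled from the files. By the study's list of mice, the gray and white matter libraries numbered 1, and the wild-type ones numbered 2, came from the same pool of mice, and Rag1-/- white matter libraries 2 and 3, both of the second batch, came from 1 mouse each. Genotype coincided with the experiment, the version of Cell Ranger and the authors' upper limit on UMIs per cell, so that these cannot be told apart. Wild-type libraries 1 and 2 of each tissue were of the first and second wild-type batch, for which the methods name different UMI limits. Differences between them cannot be told apart from batch. The Rag1-/- gray matter library was of the first batch, as was Rag1-/- white matter library 1. For the first and second Rag1-/- batch the study's methods name different Cell Ranger versions and UMI limits. The Rag1-/- tissue difference, and the average over genotypes that includes it, thus partly mix tissue with batch.

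Oligodendrocytes make the myelin that wraps axons and supply those axons with metabolites. In the mature brain they occur along a range of transcriptional states, with one end rich in the prostaglandin synthase Ptgds and the other rich in the calcium-binding protein S100b and the protease Klk6. Gray matter holds fewer and thinner myelinated fibers than white matter, and the mix of oligodendrocyte states is known to differ between them.

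A library held between 48 and 691 Oligo2b cells and between 600283 and 7523808 of their UMIs, with median depths of 9568 to 14280 UMIs and 3256 to 3986 genes per cell. The shallowest sums, those of wild-type gray and white matter libraries 1, had 70 and 48 cells. Median mitochondrial shares ran from 3.09% to 7.56%. Oligodendrocyte identity was clear, since all 11 lineage markers were present in every library, among them the transcription factor Olig2 at 101 to 183 CPM (the UMIs of a gene per 1000000 UMIs of the genes listed for both genotypes) and the myelin protein Mal at 4228 to 5495 CPM. Markers of oligodendrocyte precursors summed to at most 3.36 CPM and those of endothelial cells to at most 4.1 CPM. Microglial markers summed to 90.2 to 1074 CPM, highest in wild-type libraries 1 of both tissues, and to 97.9 to 1130 CPM in the other Oligo1 and Oligo2 cells. Of 15583 distinct cell barcodes, 21 occurred in more than 1 library, and 4 Oligo2b cells carried one of them. Rag1 gave 0 to 5 UMIs in the Oligo2b cells of a wild-type library and 3 to 19 in those of a Rag1-/- library, and a tag from the 3′ end of the transcript does not test a deletion elsewhere in the gene.

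The pair of genes given as markers of the cluster did not single it out. Mog, a protein of the outer myelin surface, stood at 1156 ± 36.2 CPM (SD, n = 5 white matter libraries) in Oligo2b and at 1067 to 1263 CPM on average in the 7 other clusters. Apod, a secreted lipid carrier, stood at 6834 ± 1890 CPM in Oligo2b, against 12840 ± 4930 in Oligo2a and 17360 ± 4915 in Oligo2c. Oligo2b thus held less Apod than the other Oligo2 clusters, and more than Oligo1a (3135 ± 934) and Oligo1c (3693 ± 970). The Oligo1b mean of 8238 CPM rested on wild-type white matter library 1 at 23560 CPM, and the other 4 libraries held 2794 to 5576. These comparisons of levels between clusters, and those that follow, are descriptions without a test, because the clusters were drawn from the same genes.

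In white matter, where all 6 Oligo1 and Oligo2 clusters were well filled, Oligo2b lay between the Oligo1 clusters and the other Oligo2 clusters. Of 156 genes that differed at least 2-fold between Oligo1 and the mean of Oligo2a and Oligo2c, 152 (97.4%) had an intermediate level in Oligo2b. On a log2 scale running from 0 at the Oligo1 level to 1 at the Oligo2a and Oligo2c level, their median position was 0.523. S100b (10:76253853-76261159, plus strand, GRCm38) gave the clearest ladder, with 29.5 ± 10.7 CPM in Oligo1a, 46.8 ± 13.6 in Oligo1c, 103 ± 32 in Oligo1b, 321 ± 94.5 in Oligo2b, 869 ± 163 in Oligo2c and 1872 ± 359 in Oligo2a. The 5 Oligo2b libraries (216 to 449 CPM) did not overlap with those of any of these neighbors.

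The same order was seen for Hopx (5:77086988-77115121, minus strand), a homeodomain protein that does not bind DNA itself, at 178 ± 14.2 CPM in Oligo1b, 411 ± 37.3 in Oligo2b and 799 ± 68 in Oligo2c. Enpp6 (8:46986887-47096762, plus strand), a choline phosphodiesterase known from newly formed oligodendrocytes, stood at 132 ± 27.5, 334 ± 38.5 and 452 ± 38.5 CPM in the same 3 clusters. Klk6 (7:43824499-43832030, plus strand) was different in that Oligo2b lay nearer the Oligo1 end, with a position of 0.373 and 74 ± 22.7 CPM against 31.2 ± 13.2 in Oligo1b, 918 ± 324 in Oligo2c and 823 ± 175 in Oligo2a. In the opposite direction, Ptgds (2:25466709-25470046, minus strand) stood at 18400 ± 10960 CPM in Oligo1b, 2782 ± 1047 in Oligo2b and 619 ± 656 in Oligo2a, a mean that rested on wild-type white matter library 1 at 1787 CPM, the other 4 libraries holding 224 to 383. Opalin, a glycoprotein of the myelin sheath, was at 810 ± 166 CPM in Oligo2b against 106 ± 30.5 in Oligo2a. Of 50 genes that the study lists for Oligo2 from its plate-based Smart-seq2 cells, 33 differed at least 2-fold between Oligo1 and Oligo2a with Oligo2c, and all 33 lay between them in Oligo2b, with a median position of 0.564.

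**Figure D1:**
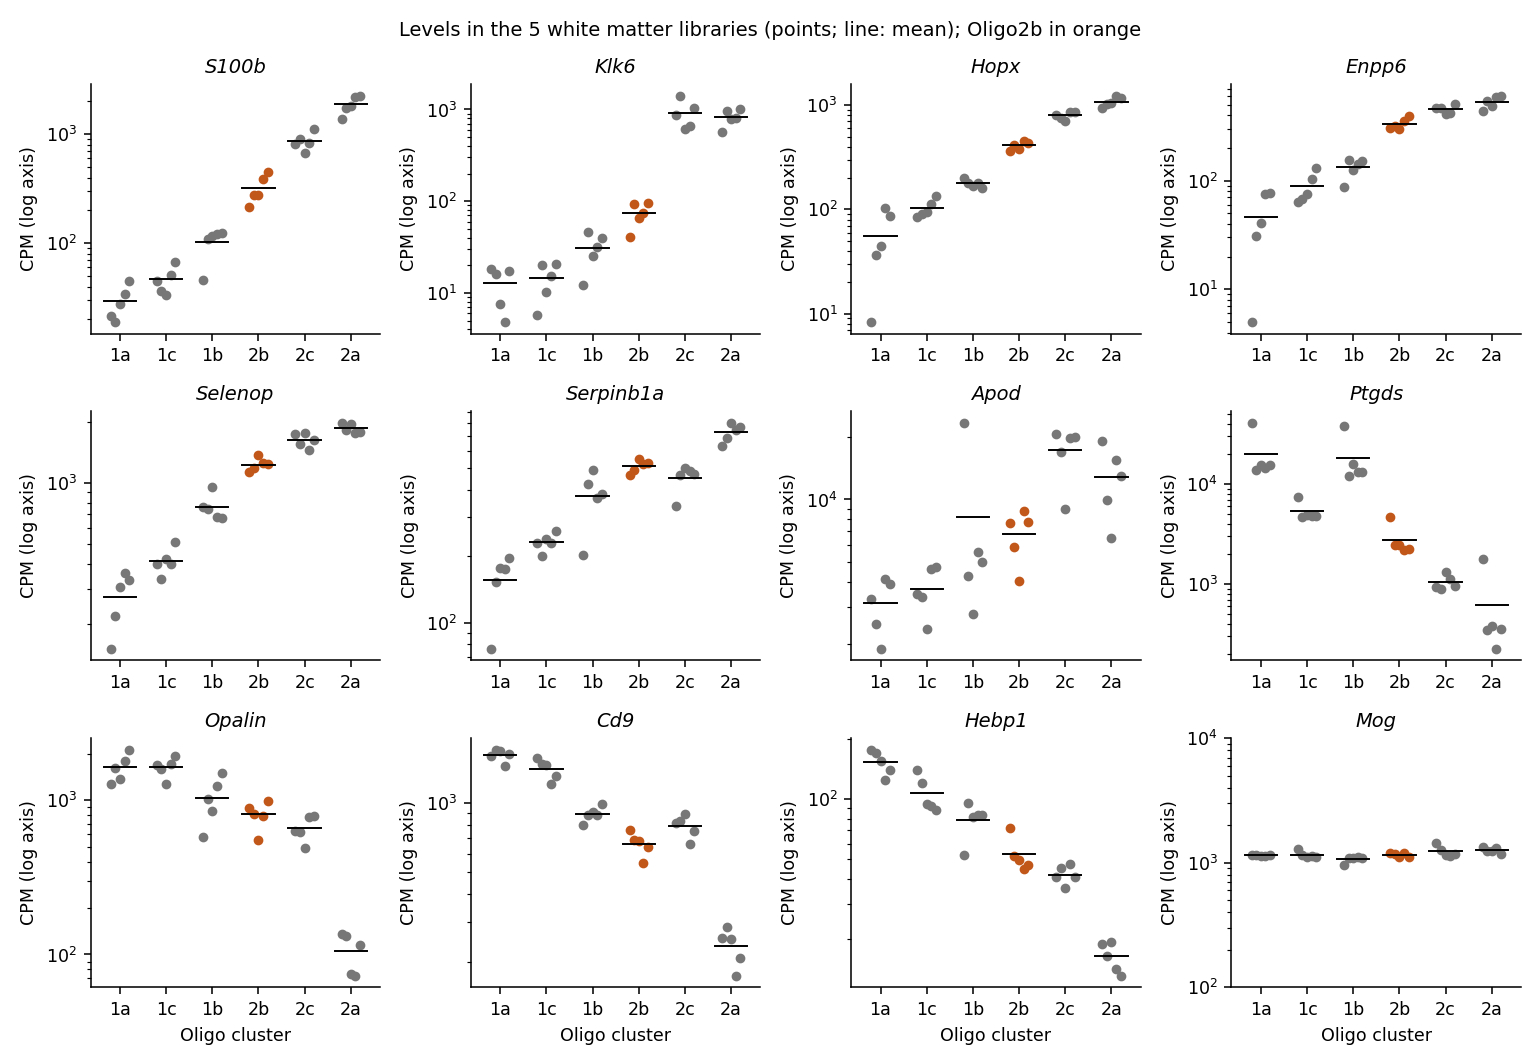
Level of 12 genes in CPM (log axis) in the Oligo1 and Oligo2 clusters of the 5 white matter libraries, with 1 point per library, a line at the mean and Oligo2b in orange. S100b, Hopx and Enpp6 stand higher in Oligo2b than in the Oligo1 clusters and lower than in Oligo2c and Oligo2a, Klk6 lies nearer the Oligo1 end at 74 CPM, and Mog is level across the clusters.

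Counted over genes with a mean of at least 50 CPM in either cluster, the nearest neighbor of Oligo2b was Oligo1b and not another Oligo2 cluster. Between 3473 and 3573 genes reached this level in a comparison, and lower genes were not counted. Genes were counted that differed at least 2-fold on average, with the same sign in every library where both clusters could be measured. There were 6 such genes against Oligo1b, 17 against Oligo1c, 27 against Oligo2c, 40 against IRO, 53 against Oligo2a, 60 against Oligo1a and 96 against ARO. The counts rest on 8 libraries for the Oligo1 clusters, 7 for Oligo2a, 5 for Oligo2c and ARO and 4 for IRO. The same sign in all is harder to meet with more libraries. S100b, Enpp6 and Hopx were the 3 genes higher than in Oligo1b, with mean log2 ratios of 1.59 ± 0.34, 1.44 ± 0.267 and 1.34 ± 0.29 (SD, n = 8 libraries). Ptgds, Ogdhl and Plin4 were the 3 lower ones, and Ptgds had a mean log2 ratio of -2.31 ± 0.5. Plin4, a coat protein of lipid droplets, varied too widely for its mean to describe the libraries, with log2 ratios from -3.18 to -0.0048. In the white matter libraries alone, Oligo1b was again the nearest with 11 genes, whereas Oligo2c with 27 and Oligo1c with 29 changed places.

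Against all other Oligo1 and Oligo2 cells of the same library, the Oligo2b profile was made of many small differences. Among 3468 genes with a mean of at least 50 CPM in either class, 247 were higher and 133 were lower in Oligo2b in each of the 8 libraries, and the mean ratio reached 2-fold for 0 of the higher and 3 of the lower genes. Enpp6 led the higher genes with 275 ± 86.7 CPM against 179 ± 84.3 in the other cells (1.64-fold). Lama2, a basement membrane laminin chain, stood at 52.1 against 32.5 CPM (1.58-fold), the calcium channel Itpr2 at 53.4 against 35.1 (1.5-fold) and the protease inhibitor Serpinb1a at 489 against 332 (1.49-fold). Lama2, Itpr2 and Ccdc152 reached the minimum in Oligo2b alone, and Cdkn1a, Fam13c, Ttyh1 and B2m among the lower genes in the other cells alone, and a minimum met in either class favours the direction such genes were named for. The selenium carrier Selenop (1.48-fold) overlaps Ccdc152 in the genome, so that the latter's 1.49-fold ratio cannot be assigned to either gene with certainty. The other genes named by the rule were Klhl4, Gng11, Inpp5f, Myh14, the hyperpolarization-activated channel Hcn2 and Crybg3, at 1.25-fold to 1.39-fold. Oligo1 cells made up most of the cells compared with, and the mean white matter levels of 9 of the 12 genes were higher in Oligo2a than in Oligo2b, the others being Lama2, Itpr2 and Myh14. Selenop stood at 1768 to 1993 CPM in Oligo2a, 1462 to 1776 in Oligo2c and 1130 to 1372 in Oligo2b libraries. Lama2, Itpr2 and Myh14, at 60.2 ± 7.61, 56.5 ± 9.93 and 78 ± 10.1 CPM, had their highest mean in Oligo2b. The next highest means were 51.8 ± 9.31 CPM for Lama2 in Oligo1b, 46.9 ± 6.32 for Itpr2 in Oligo2c and 75.6 ± 7.34 for Myh14 in Oligo2a. Ranges of 1 SD overlapped for all 3, so that these genes did not set Oligo2b apart from its neighbors.

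Ptgds, Klk6 and Cdkn1a were the 3 genes at least 2-fold lower in Oligo2b. Ptgds stood at 4040 ± 2056 CPM in Oligo2b and 12120 ± 6631 in the other cells (0.339-fold), and it was lower in every library by at least 1.3 on the log2 scale. Klk6 stood at 0.297-fold of the other cells, 15 against 56.4 CPM in wild-type gray matter library 1 and 92.6 against 454 CPM in wild-type white matter library 2. The cell cycle inhibitor Cdkn1a was detected mainly in wild-type libraries 1 of both tissues, at 17.7 and 65.4 CPM in Oligo2b and 463 and 505 CPM in the other cells, and at no more than 10.5 CPM in either class of any other library. The tetraspanin Cd9 (0.667-fold), the potassium channel Kcna2 (0.64-fold), the heme-binding protein Hebp1 (0.639-fold), the metallothionein Mt1 (0.678-fold) and the MHC class I light chain B2m (0.677-fold) were lower in all 8 libraries, as were Fam13c, Plekha1, Ttyh1 and Rap2a. Most of the cells compared with were Oligo1 cells, and a low level was not particular to Oligo2b. In white matter the means of Ptgds, Cd9, Kcna2, Hebp1, Ttyh1, Fam13c, Plekha1 and Mt1 were lower still in Oligo2a. Those of Klk6, Cdkn1a, B2m and Rap2a were higher there. Cd9 stood at 663 ± 79.2 CPM in Oligo2b and 236 ± 44 in Oligo2a. Klk6 stood at 74 CPM in Oligo2b and 12.8 to 31.2 in the Oligo1 clusters. The 12th gene on each side was separated little from the 13th, with log2 ratios in the least favorable library of 0.181 and 0.18 for the higher genes and -0.294 and -0.243 for the lower ones.

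Of all genes with at least 50 CPM in either class, 7.12% were higher and 3.84% lower in Oligo2b in all libraries (7.02% and 3.53% of the 3317 genes that reached the minimum in both classes), and the gene lists are given against these shares. Of 26 myelin protein genes with at least 50 CPM, 8 were higher in all libraries, among them Mag, Ermn and Omg, and 5 were lower, among them Opalin, Tspan2 and Cd9, with a median log2 ratio of 0.022 against 0.0033 over all genes. Of 43 cytosolic ribosomal genes, 11 were lower and 0 higher, with a median of -0.037. Of 18 genes of the study's Oligo2 list, 8 were higher and 1 lower, and of 6 genes of newly formed oligodendrocytes 3 were higher and 1 lower. Tln2 among the higher genes of the Oligo2 list, and Itpr2 and Tcf7l2 among those of newly formed oligodendrocytes, reached the minimum in Oligo2b alone. The minimum thus favored the direction in which they were counted. Of 15 genes of fatty acid and sphingolipid synthesis, 3 were higher and 0 lower, whereas of 8 stress and glucocorticoid genes 3 were lower and 0 higher. Of these lower stress genes, Cdkn1a reached the minimum in the other cells alone and was detected mainly in wild-type libraries 1. Of 18 lysosomal genes, 3 were lower and 1 higher. Of 12 cholesterol synthesis genes, 0 were shifted in all libraries in either direction. In white matter, 3 genes of the reactive states were lower in Oligo2b than in the clusters named for those states. C4b, a complement component, stood at 522 ± 187 CPM against 1889 ± 480 in ARO and 1743 ± 398 in IRO (n = 4), the secreted inhibitor Serpina3n at 56.2 ± 17.4 against 725 ± 167 in ARO, and the interferon-induced Ifi27l2a at 8.25 ± 7.49 against 488 ± 146 in IRO. The study characterizes ARO by C4b and Serpina3n and IRO by Ifi27l2a, so that this direction was largely set in advance. Low levels were not particular to Oligo2b. In Oligo1a, Oligo1b, Oligo1c and Oligo2a, C4b averaged 403 to 821 CPM, Serpina3n 63.7 to 83.9 and Ifi27l2a 3.8 to 32.7. Oligo2c held 1984 ± 446.5, 676 ± 256 and 141 ± 102 CPM of the 3 genes.

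The share of Oligo2b among oligodendrocytes was higher in gray than in white matter. It was 24.6% and 30.2% in the wild-type gray matter libraries, with exact binomial (Clopper-Pearson) 95% intervals of 19.8 to 30.1% and 27.5 to 33%, and 9.72% (7.25 to 12.7%) and 13.7% (12.6 to 14.8%) in white matter. The Rag1-/- shares were 24.1% (21.5 to 26.8%) for gray and 16.9%, 17.7% and 17.9% for white matter. No white matter library reached the lowest gray matter library in either genotype. Intervals cover counting error only. Averaged over the genotypes, the share fell by 0.84 on the log2 scale in white matter (SE 0.182, adjusted p = 0.0027, edgeR quasi-likelihood test on cell numbers of 8 clusters), and an exact two-sided permutation of libraries within genotype gave p = 0.0417, the smallest that its 24 arrangements allow. In wild-type mice alone the share fell by 1.21 on the log2 scale (SE 0.25, adjusted p = 0.00237, edgeR). These fits and the permutation did not take shared mice into account. With mouse pool as a replicate block neither difference passed, at -0.88 for both genotypes (adjusted p = 0.167, edgeR) and -1.24 for wild-type mice (adjusted p = 0.0985, edgeR). In Rag1-/- mice alone, with 1 gray matter library, the difference was -0.46 (SE 0.271, adjusted p = 0.171, edgeR), and the difference between the genotypes was not called (0.75, SE 0.376, adjusted p = 0.6, edgeR). Among Oligo1 and Oligo2 cells alone, without ARO and IRO, the shares lay closer, at 27.6% and 15.8% as means of wild-type gray and white matter and 24.1% and 20.2% in Rag1-/- mice. The difference was then -0.52 (SE 0.168, adjusted p = 0.0175, edgeR), with -0.79 in wild-type and -0.25 in Rag1-/- mice. A higher share in gray matter was not particular to Oligo2b. Oligo1b made up 25.7 to 43.2% of the oligodendrocytes of gray and 3.99 to 11.9% of those of white matter libraries. Its share fell by 2.25 on the log2 scale (SE 0.395, adjusted p = 0.000908, edgeR).

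The share was also taken within Oligo2. Oligo2b made up 85.4% and 90.4% of the Oligo2 cells in wild-type gray matter and 86.7% in Rag1-/- gray matter. In white matter it made up 37.2% and 43.8% in wild-type and 47.7%, 49.1% and 46.7% in Rag1-/- libraries. Most Oligo2 cells of the cortex were therefore Oligo2b, whereas in the tracts Oligo2a and Oligo2c together outnumbered it. The log2 difference was -0.96 (SE 0.0558, adjusted p = 1.2e-09, edgeR over 3 clusters), with -1.05 in wild-type and -0.87 in Rag1-/- mice. The 3 clusters sum to the Oligo2 cells of a library and are not independent. An exact permutation of libraries within genotype gave p = 0.0417, the smallest that its 24 arrangements allow. It exchanged libraries of different mouse pools as well. Among the shares, the replicate block was fitted for all oligodendrocytes only, so that shared mice were not taken into account here.

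The enrichment depended on what the cells were counted against. Of all sorted cells of a library, Oligo2b made up 12% and 18.3% in wild-type gray matter and 5.14% and 10.5% in white matter, but 6.67% in Rag1-/- gray matter and 6.75%, 9.78% and 10.6% in Rag1-/- white matter. The direction was thus opposite in the genotypes, and the mean difference of -0.25 was not called (SE 0.344, adjusted p = 0.469, edgeR). In cell numbers, 2103 of the 2765 Oligo2b cells (76.1%) came from white matter libraries. The share among oligodendrocytes was thus higher in gray matter in both genotypes, the share among all cells in wild-type mice alone, and the Rag1-/- gray matter library (6.67%) lay just below the lowest Rag1-/- white matter library (6.75%).

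**Figure D2:**
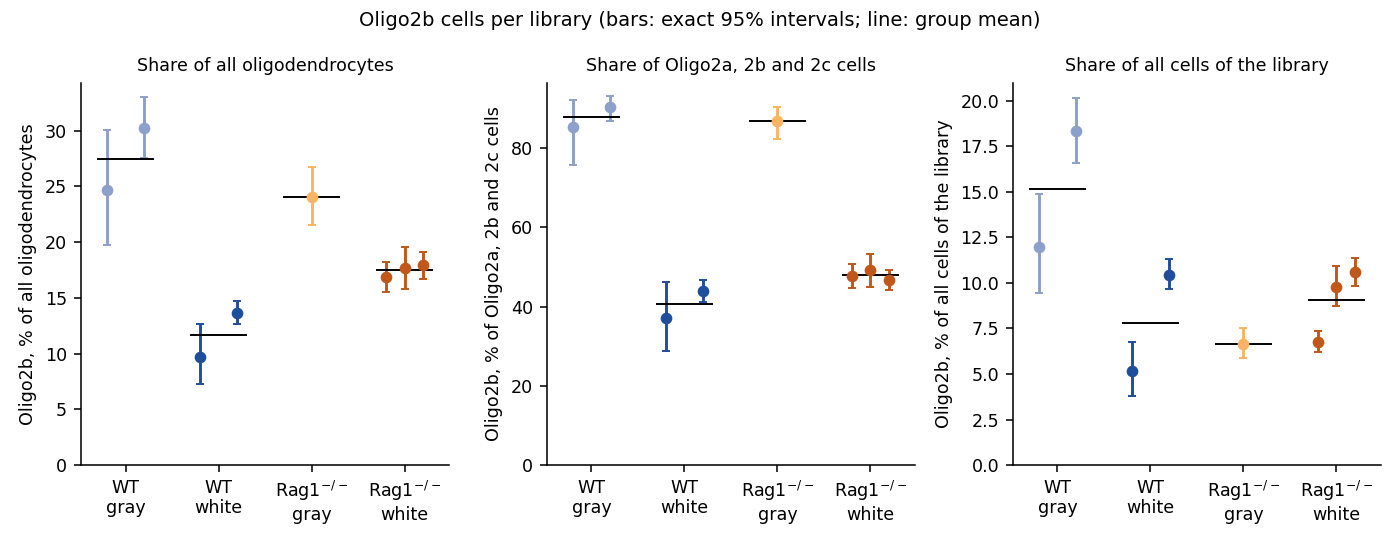
Oligo2b cells in each of 8 libraries as a percentage of all oligodendrocytes, of Oligo2a, 2b and 2c cells, and of all cells, with exact 95% intervals as bars and a line at the group mean. Gray matter stands above white matter in both genotypes in the first and second panels, whereas in the third Rag1-/- gray matter, at 6.67%, stands below all Rag1-/- white matter libraries.

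Rag1-/- white matter held a larger share of Oligo2b than wild-type white matter, by 0.55 on the log2 scale (SE 0.225), which did not pass (adjusted p = 0.144, edgeR; exact permutation p = 0.1, the smallest that 2 against 3 libraries allow). All 3 Rag1-/- libraries, at 16.9 to 17.9% of oligodendrocytes, lay above both wild-type libraries. ARO made up 6.98 to 15.8% of oligodendrocytes in Rag1-/- and 21.6 to 21.7% in wild-type white matter, and IRO 0.855 to 1.28% and 3 to 5.87%. Among Oligo1 and Oligo2 cells, without ARO and IRO, the difference was 0.33 and did not pass (SE 0.206, adjusted p = 0.444, edgeR). Among Oligo2 cells alone, the difference was 0.14 (adjusted p = 0.0495, edgeR; exact permutation p = 0.1). Among all cells of a library it was 0.19 (SE 0.416) and was not called, and the libraries of the genotypes overlapped. Without single libraries, the difference among oligodendrocytes ranged from 0.35 to 0.85.

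Oligo2b cells of white matter differed from those of gray matter in the level of 138 of 11025 genes tested (1.25%). The change was averaged over both genotypes in edgeR, and 75 genes were higher (0.68%) and 63 lower (0.571%) in white matter at an adjusted p of 0.05. Of these, 71 and 59 had no overlap between gray and white matter libraries within either genotype, against 13.6% of all genes tested. The median log2 difference over all genes was 0.0065. The called genes included complement and serpin genes, S100b and Klk6, the MHC class I genes B2m and H2-D1 and, in the other direction, Ptgds, Glul and Slc1a2. The count ranged from 32 to 317 when single libraries were left out, with 32 without wild-type white matter library 2, 52 without wild-type gray matter library 2 and 317 without Rag1-/- white matter library 1, and it was 425 with the pool as a replicate block.

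C4b (17:34728380-34743882, minus strand) had the most pronounced change relative to its error. It stood at 79.2 and 89.9 CPM in wild-type gray matter and 647 and 773 in white matter, and at 24.3 in Rag1-/- gray matter and 308, 410 and 471 in white matter. Every white matter library was more than 3 times as high as the highest gray matter library, and the fitted difference was 3.55 (SE 0.184, adjusted p = 8.4e-08, edgeR). C4b has the near-identical copy C4a, to which the authors' counting could have assigned some reads. Serpina3n (12:104406729-104414329, plus strand), 1 of a family of closely related genes, stood at 12.3 and 13.4 CPM in wild-type gray matter, 57 and 85.5 in wild-type white matter, 9.95 in Rag1-/- gray matter and 41.6, 45.6 and 51.1 in Rag1-/- white matter. Its groups did not overlap, and the difference was 2.38 (SE 0.198, adjusted p = 2e-05, edgeR). Serpind1, the thrombin inhibitor heparin cofactor II, rose by 2.38 (SE 0.258), from 4.38 to 10.9 CPM in gray matter to 23.4 to 29.2 CPM in white matter. These were the 3 called members of 8 tested complement and serpin genes.

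Of 49 tested genes of the study's Oligo2 list, 15 rose in the Oligo2b cells of white matter, 0 fell and 34 did not pass, with a median difference of 0.49. S100b stood at 147 and 118 CPM in wild-type gray matter, 216 and 276 in wild-type white matter, 125 in Rag1-/- gray matter and 276, 387 and 449 in Rag1-/- white matter. No library overlapped between the tissues, and the difference was 1.28 (SE 0.17, adjusted p = 0.00148, edgeR). Hopx, at 151 to 172 CPM in gray and 366 to 454 in white matter, rose by 1.41 (SE 0.116, adjusted p = 2e-05, edgeR). Klk6, at 15 to 24.7 CPM in gray and 40.2 to 96.5 in white matter, rose by 1.79 (SE 0.248, adjusted p = 0.00151, edgeR). Enpp6 rose by 0.93 (SE 0.127), the transcription factor Nkx2-9 by 1.51 (SE 0.208) and the fatty acid amide hydrolase Faah by 1.65 (SE 0.263), each without overlap of the tissues. Selenop and Serpinb1a were not called, with differences of 0.26 (SE 0.101) and 0.21 (SE 0.106).

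Of 14 genes on the study's Oligo1 list, 7 fell and 0 rose in white matter, with a median of -1.03. Ptgds stood at 7731 and 4962 CPM in wild-type gray matter, 4643 and 2434 in wild-type white matter, 5718 in Rag1-/- gray matter and 2436, 2167 and 2232 in Rag1-/- white matter, a difference of -1.08 (SE 0.176, adjusted p = 0.00512, edgeR). The tissues did not overlap within a genotype, although wild-type white matter library 1 lay close to wild-type gray matter library 2. Ttyh1, a chloride channel family member, fell by 1.37 on the log2 scale (SE 0.157), from 47 to 71 CPM in gray matter to 18.8 to 28.5 CPM in white matter, and Nudt4, Lrp4, Ptpn13, Rapgef3 and Dab1 fell as well. In the cells of white matter, Ptgds varied widely, with quartiles of 4.48 and 41.5 UMIs per 10000 in wild-type library 2 against 27.4 and 72.6 in the gray matter library of the same pool. The median of the white matter cells (15.6) thus lay below the lower quartile of the gray matter cells, and the upper quartile lay above it.

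Apod rose in white matter by 1.26 (SE 0.215, adjusted p = 0.00711, edgeR). It stood at 3375 and 3208 CPM in wild-type gray matter, 7654 and 5870 in wild-type white matter, 2509 in Rag1-/- gray matter and 4030, 8796 and 7820 in Rag1-/- white matter. Rag1-/- white matter library 1 stood below the other white matter libraries but above all gray matter libraries. It was the only Rag1-/- white matter library from the batch of the Rag1-/- gray matter library. The median over cells was 21.9 to 33 Apod UMIs per 10000 in gray and 37.8 to 79.8 in white matter. Fabp5, a fatty acid carrier, fell by 0.53 (SE 0.119, adjusted p = 0.0419, edgeR), and with Apod and Ptgds it made up the called members of 14 lipid transport genes.

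**Figure D3:**
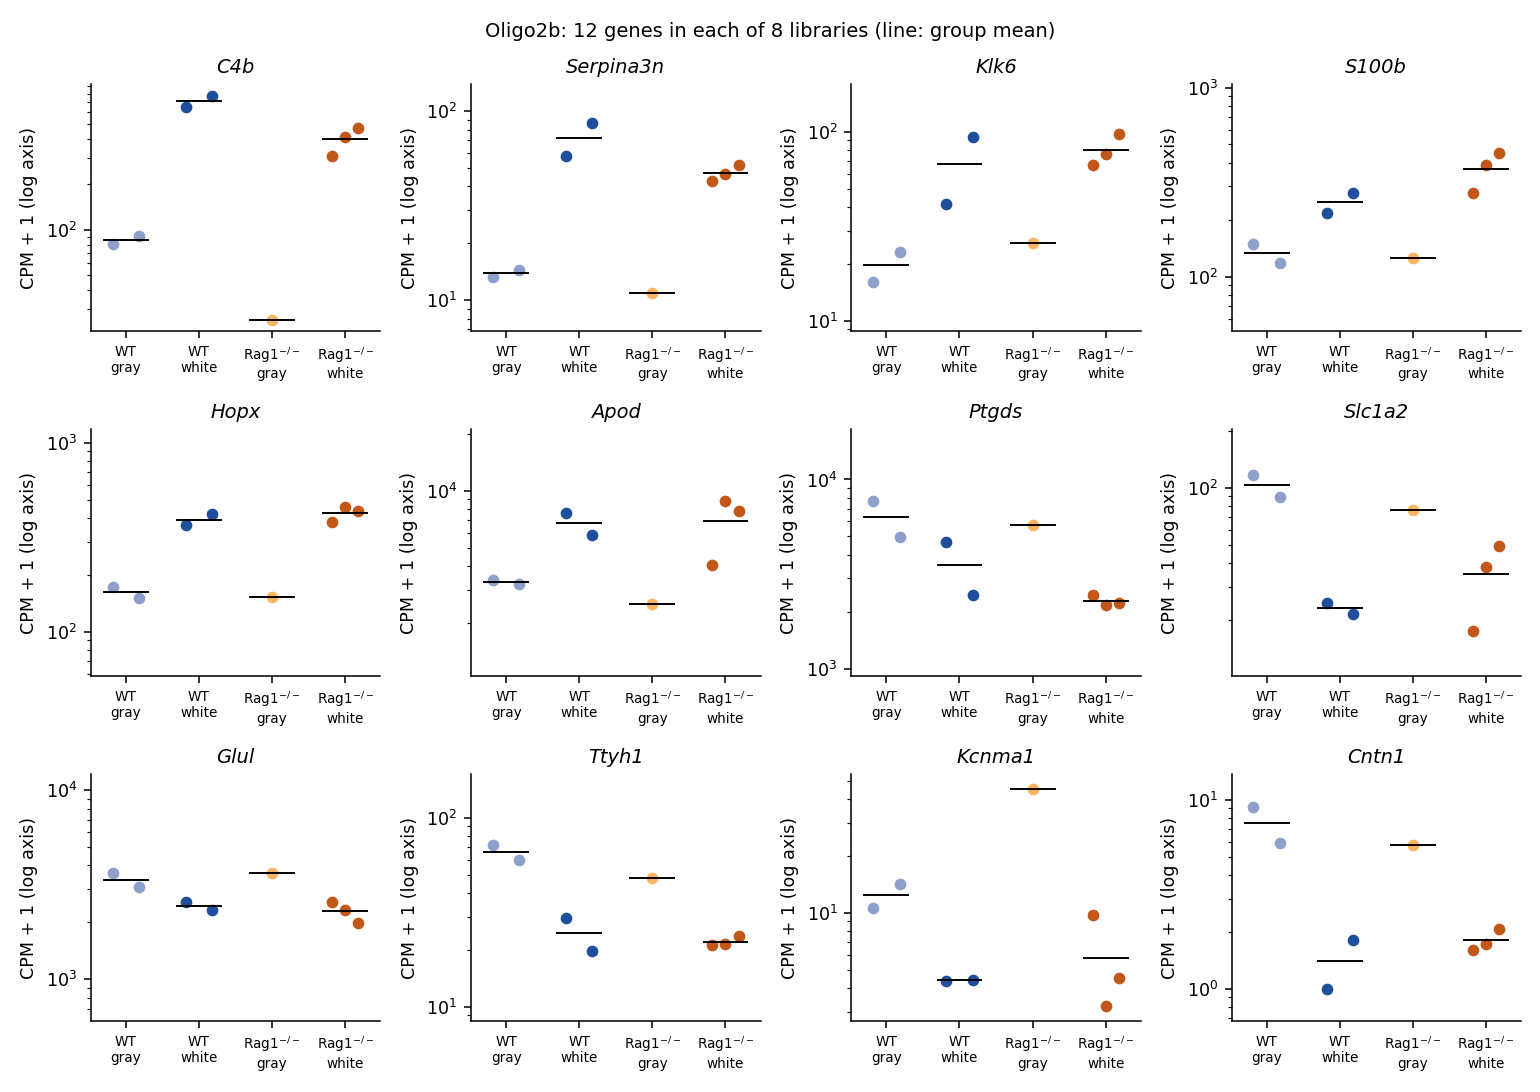
Level of 12 genes in the summed Oligo2b cells of each library, in CPM plus 1 on a log axis, with a line at the mean of each group. C4b, Serpina3n, Klk6, S100b, Hopx and Apod are higher in white matter in both genotypes and Ptgds, Slc1a2, Glul, Ttyh1, Kcnma1 and Cntn1 are lower, and C4b and Serpina3n also stand lower in Rag1-/- than in wild-type mice in both tissues.

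Of 86 tested genes on the study's ARO list, 18 rose in the Oligo2b cells of white matter and 1 fell (Rbms1, an RNA-binding protein), with a median of 0.48. Besides C4b and Serpina3n, the extracellular matrix protein Itih5 rose from 8.36 to 23.4 CPM in gray matter to 46 to 66 CPM in white matter (2.18, SE 0.215), and the signal transducer Stat3 rose by 0.79 (SE 0.153) and the transcription factor Cebpd by 0.8 (SE 0.161). Masp1 of the lectin complement pathway, Socs3, an inhibitor of cytokine signaling, and the mechanosensitive channel Piezo2 had 0 UMIs in the 3 gray matter libraries. Against a floor of 3 counts over the gray matter cells, they were at least 8.1-fold, 6.63-fold and 13.2-fold higher in white matter, and Piezo2 had no UMI in wild-type white matter library 1. The transporter Slc22a18, outside the list, was at least 7.89-fold higher. The lists were compiled from other cells of the same study and are not independent of it, and no test of a list as a whole was made.

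Antigen presentation genes rose in part. Of 11 MHC class I genes tested, 2 rose. B2m stood at 34.1 and 22 CPM in wild-type gray matter, 97.3 and 60.7 in wild-type white matter, 17.9 in Rag1-/- gray matter and 42.6 to 49.8 in Rag1-/- white matter, a rise of 1.45 (SE 0.202, adjusted p = 0.00151, edgeR). H2-D1, a heavy chain whose family members are closely similar, rose by 1.09 (SE 0.167, adjusted p = 0.00327, edgeR), whereas H2-K1 was not called (0.18, SE 0.157, adjusted p = 0.839, edgeR). Of 12 interferon-stimulated genes tested, Ifi27l2a was the 1 called, from at most 1.22 CPM in gray matter to 1.46 to 20.1 CPM in white matter (2.88, SE 0.62). Ifit3, which shares reads with its copy Ifit3b, stood at 5.03 CPM in wild-type white matter library 1 and at no more than 1.37 in any other library. Usp18 was too low to be tested. Summed T cell markers stood at 15.1 and 2.76 CPM in wild-type white matter and at no more than 1.36 CPM in any other library, so that wild-type white matter library 1 was the highest for T cell markers, B2m, Ifi27l2a and Ifit3 alike. The part of T cell RNA in these values was not tested.

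Of 15 tested genes of glutamate and metabolite support, 3 fell in white matter, 1 rose and 11 did not pass. Glul, which makes glutamine from glutamate, stood at 3631 and 3074 CPM in wild-type gray matter, 2575 and 2326 in wild-type white matter, 3668 in Rag1-/- gray matter and 2548, 2323 and 1988 in Rag1-/- white matter, a fall of 0.56 on the log2 scale (SE 0.106, adjusted p = 0.0141, edgeR). The glutamate transporter Slc1a2 fell by 1.67 (SE 0.271, adjusted p = 0.00481, edgeR), from 75.6 to 116 CPM to 16.5 to 48.2 CPM. The receptor Grm7 fell by 1.42 (SE 0.165) and the receptor Gria4 rose by 1.25 (SE 0.194). Slc1a2 is also an astrocyte marker. Summed over 9 astrocyte markers, Oligo2b held 285 to 356 CPM in gray and 171 to 228 in white matter, and the other Oligo1 and Oligo2 cells 341 to 424 and 158 to 236, and of the 9 markers Slc1a2 and Mt3 fell while Gfap rose. The part of astrocyte RNA in the Slc1a2 difference was not tested.

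Of 19 tested genes of axonal and synaptic adhesion, Cntn1 fell and Sema4d rose, and of 5 tested neuronal markers Camk2a fell. The semaphorin Sema4d rose by 0.49 (SE 0.103), from 202 to 238 CPM in gray matter to 273 to 332 CPM in white matter. Among the genes with the largest fitted falls, the calcium-activated potassium channel Kcnma1 stood at 9.55 and 13.2 CPM in wild-type gray matter, 3.35 and 3.41 in wild-type white matter, 44.2 in Rag1-/- gray matter and 2.19 to 8.67 in Rag1-/- white matter, a fall of 2.52 on the log2 scale (SE 0.341). The bicarbonate transporter Slc4a10 fell by 1.95 (SE 0.269), the microtubule-associated Nav3 by 2.3 (SE 0.348) and the axonal adhesion molecule Cntn1 by 2.71 (SE 0.56). Cntn1 was at 4.78 to 8.19 CPM in gray matter and at most 1.08 in white matter. The neuronal kinase Camk2a had 23 UMIs in all gray and 4 in all white matter Oligo2b cells, and the 5 tested neuronal markers had a median difference of -2.20. Of 10 neuronal markers, Olfm1 held 43.7 to 54.1 CPM in gray and 57 to 77.5 in white matter, and the other 9 together held 9.55 to 11.9 CPM in gray and 1.46 to 5.03 in white matter, without overlap. The part of neuronal RNA in the falls of Camk2a and Cntn1 was not tested. The immediate early gene Nr4a1 fell by 1.33 (SE 0.209) and was the 1 called of 13 in its list.

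Of 27 myelin protein genes, 0 were called in edgeR, beside 1.25% of all genes tested, with a median difference of 0.044. Mbp ranged from 3224 to 5427 CPM over the 8 libraries (0.24, SE 0.17) and Mog from 1095 to 1308 (-0.0019, SE 0.0933), with gray and white matter libraries interleaved. Among 20 cholesterol synthesis genes 1 was called, the regulator Insig1, which fell by 0.82 (SE 0.159). Of 32 nuclear genes of oxidative phosphorylation, 43 ribosomal, 24 lysosomal, 8 iron and 13 heat shock genes, 0 were called in either direction, with medians of 0.092, 0.071, -0.064, -0.063 and -0.11. Of 19 genes of fatty acid and sphingolipid synthesis 0 were called, and of 14 genes of the stress and glucocorticoid list 1 rose (Txnip, by 0.77, SE 0.145).

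Among markers of other cell types, 10 microglial genes had a median difference of -0.92 between white and gray matter, with 0 called by edgeR and overlapping summed levels. The sums stood at 1074 and 119 CPM in wild-type gray and 760 and 90.2 in wild-type white matter, and at 388 and 320 CPM in gray and white matter Rag1-/- libraries 1. Within each of these pools of mice the white matter sum was the lower. The choroid plexus carrier Ttr was called, at 0 and 2.2 CPM in wild-type gray matter, 23.5 and 17.5 in wild-type white matter, 10.4 in Rag1-/- gray matter and 17 to 31.1 in Rag1-/- white matter. In the other Oligo1 and Oligo2 cells the 4 choroid plexus markers summed to at most 1.66 CPM in wild-type gray, 16.6 to 26.6 in wild-type white, 7.51 in Rag1-/- gray and 18.5 to 33.6 in Rag1-/- white matter. The 4 blood markers summed to 601 CPM in the Oligo2b cells of Rag1-/- gray matter library 1, 18.8 to 138 in Rag1-/- white matter and at most 3.17 in wild-type libraries, although the other Oligo1 and Oligo2 cells of a wild-type gray matter library held 1954 CPM. The part of RNA from these cells in the differences was not tested.

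Taken within wild-type mice, 17 genes were called (0.154%), 14 higher (0.127%) and 3 lower (0.0272%) in white matter, and in Rag1-/- mice, with 1 gray matter library assumed to vary like the others, 41 (0.372%), 19 higher (0.172%) and 22 lower (0.2%). C4b, Crip2, Hopx, Itih5, Nol3, Serpina3n, Serpind1 and Ttyh1 were the 8 genes called in both. The wild-type count was 1 without gray matter library 2, 5 without white matter library 2, 65 without Rag1-/- white matter library 1 and 216 with the replicate block. All 4 hemoglobin genes were among the 22 lower genes of Rag1-/- white matter. In Rag1-/- mice tissue is partly mixed with batch, because the gray matter library was of the first batch and most white matter libraries were of the second. C4b rose by 3.06 (SE 0.207) in wild-type and by 4.04 (SE 0.296) in Rag1-/- mice, and Serpina3n by 2.53 (SE 0.249) and 2.22 (SE 0.309). The difference between the genotypes itself was called for 0 genes in edgeR (0.0%), with 235 at an unadjusted p under 0.05, and for 0 in DESeq2, with 52. Without Rag1-/- white matter library 1 the edgeR count was 7. The 235 and 52 genes are smaller shares of the genes tested than an unadjusted threshold of 0.05 gives by itself. In the simulated data the edgeR test of this difference recovered 60.8% of interactions of 2 on the log2 scale and 20.4% of those of 1.

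To set these changes beside those of other cells, the white minus gray matter difference was compared with that of the other Oligo1 and Oligo2 cells of the same libraries. All 138 called genes had the same sign in the other cells. The share of same signs over all genes tested is not given here, so that this count has no background beside it. The difference itself was called for 38 of 11844 genes (0.321%), 9 higher (0.076%) and 29 lower (0.245%) in Oligo2b. In 21 of the 38, levels were higher in white matter in both classes, by less in Oligo2b. S100b went from 125 to 132 CPM in gray matter to 246 to 370 CPM in white matter as group means in Oligo2b, and from 137 to 140 to 470 to 667 in the other cells (difference -0.84, SE 0.0878, adjusted p = 3.1e-07, edgeR). Klk6 differed by -1.33 (SE 0.181), Cdkn1c by -1.37, Hopx by -0.77, Anxa5 by -0.74, Aven by -0.68, Enpp6 by -0.56 and the iron carrier Trf by -0.31. The count was 21 without wild-type white matter library 2, 66 without wild-type white matter library 1 and 13 in DESeq2.

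The composition of the other cells changed with tissue. Oligo2a and Oligo2c made up 4.64 to 5.66% of them in gray matter and 24.6 to 31.3% in white matter, whereas Oligo1b made up 34.4 to 56.9% in gray and 6.47 to 19% in white matter. Compared with Oligo1 cells alone, a setting chosen after the data were seen, the S100b difference was larger in Oligo2b, by 0.85 (adjusted p = 1.1e-05, edgeR), and 17 of the 38 genes changed sign, 5 of them called with the opposite sign. The other 21 kept their sign. Called with the same sign against both sets of cells were 7 genes, named after their values were seen. The white minus gray matter difference of Cntn1, Sh3gl2, Rbms1, Nr4a1 and Fabp5 was lower in Oligo2b, and that of Glul and the proteoglycan Cspg5 was higher.

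Of these 7 genes, Cntn1 went in Oligo2b from 6.54 to 0.406 CPM in wild-type and from 4.78 to 0.804 in Rag1-/- mice as group means, while Oligo1 cells held 23.7 and 21.2 CPM in wild-type and 12.9 and 11.7 CPM in Rag1-/- gray and white matter. The difference from the other Oligo1 and Oligo2 cells was -2.07 (SE 0.443, adjusted p = 0.0189, edgeR) and that from Oligo1 cells -2.65 (SE 0.435). The endocytic protein Sh3gl2 differed by -1.47 (SE 0.236, adjusted p = 0.000636, edgeR) and by -1.97, Nr4a1 by -0.96 and -1.47, Rbms1 by -1.03 and -1.1, and Fabp5 by -0.37 and -0.41. Glul went from 3352 to 2451 CPM in wild-type Oligo2b cells and from 3137 to 1778 in Oligo1 cells, a difference of 0.28 (SE 0.0483) from the other cells and 0.33 from Oligo1 cells. Cspg5 was at 13.5 and 14.1 CPM in wild-type gray and white matter Oligo2b cells and at 16.2 and 5.06 CPM in Oligo1 cells.

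**Figure D4:**
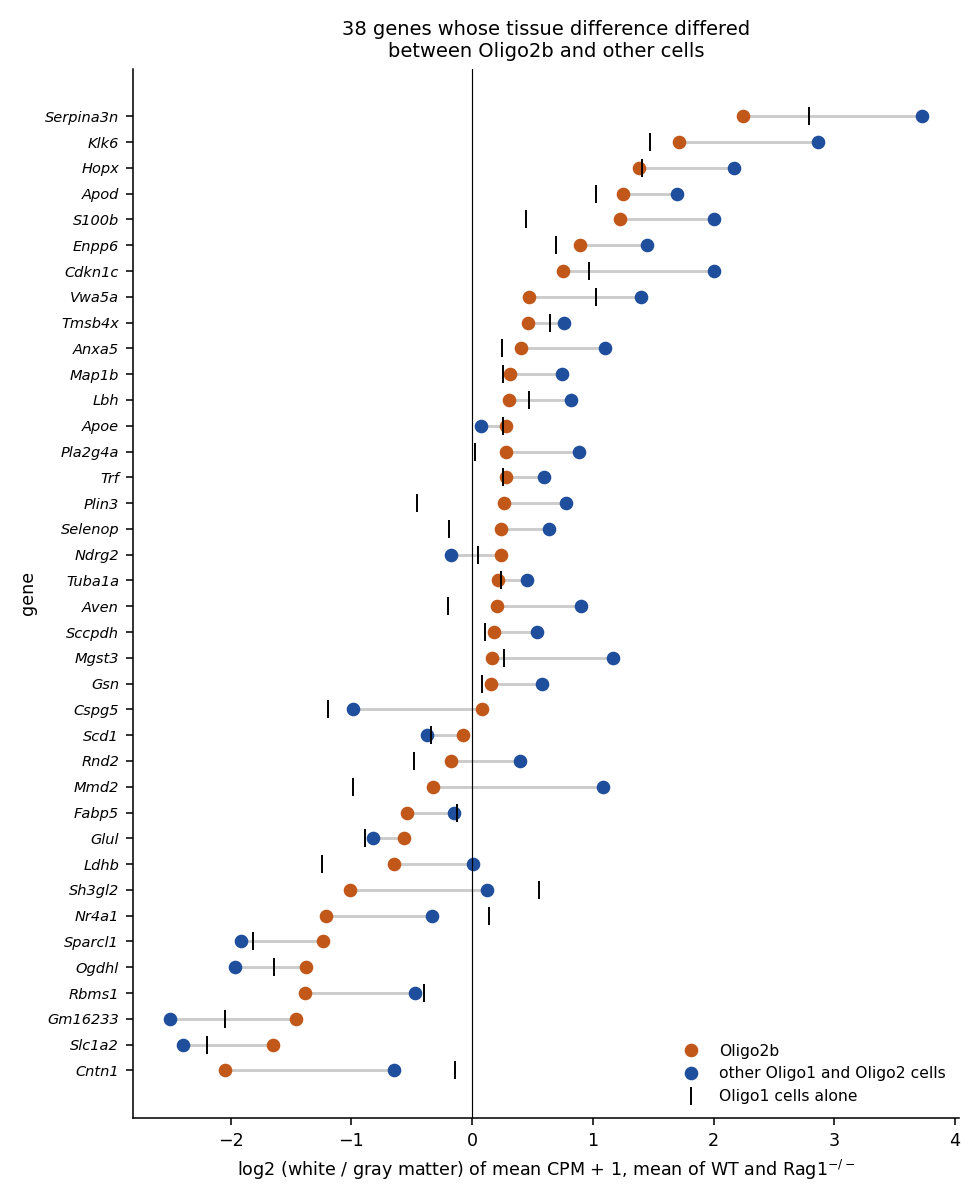
White against gray matter difference of 38 genes, as the log2 ratio of group mean CPM plus 1 averaged over the genotypes, in Oligo2b (orange), in the other Oligo1 and Oligo2 cells (blue) and in Oligo1 cells alone (tick). For S100b, Hopx, Klk6 and Enpp6 the orange point lies left of the blue one, but right of the tick or close to it, whereas for Cntn1, Nr4a1, Sh3gl2 and Rbms1 it lies left of both.

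Between genotypes, Oligo2b cells of white matter differed in 96 genes (0.871%), 79 higher (0.717%) and 17 lower (0.154%) in Rag1-/- mice. Most of the large differences were in genes nearly absent from 1 genotype. The proton pump subunit Atp6v0c stood at 6.71 and 2.76 CPM in wild-type and 504, 531 and 528 CPM in Rag1-/- white matter, and the ribonuclease Rnasek at 11.7 and 0.649 against 323, 402 and 410 CPM. The phosphatase Ptp4a1 stood at 595 and 552 CPM in wild-type and 2.82, 2.19 and 1.48 CPM in Rag1-/- white matter. Fitted differences of at least 10-fold were found for 35 higher and 7 lower genes. Of the 96 genes, 95 had the same sign in the other Oligo1 and Oligo2 cells and all 96 in gray matter Oligo2b cells, where Atp6v0c was at 12.3 and 2.93 CPM in wild-type and 520 CPM in Rag1-/- mice. The shares of same signs over all genes tested are not given here. Genotype cannot be told apart here from the experiment and the Cell Ranger version. The count was 38 without wild-type white matter library 2 and 153 without Rag1-/- white matter library 1.

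C4b was the 1 gene called for both tissue and genotype. It was lower in Rag1-/- white matter by 0.79 on the log2 scale (a fitted value of -0.79, SE 0.162, adjusted p = 0.0255, edgeR), and every Rag1-/- library stood below every wild-type library of the same tissue. The tight junction protein Cldn11 of the myelin sheath stood at 3028 and 2713 CPM in wild-type and 2044, 1959 and 1680 CPM in Rag1-/- white matter (-0.55, SE 0.12, adjusted p = 0.0454, edgeR), the 1 called of 27 myelin protein genes. The glucocorticoid-induced Klf9 stood at 203 and 169 CPM in wild-type and 279, 278 and 265 CPM in Rag1-/- white matter (0.65, SE 0.126, adjusted p = 0.017, edgeR). It was the 1 of the 96 genes whose sign was opposite in the other Oligo1 and Oligo2 cells, where the log2 ratio of group means was -0.012 against 0.56 in Oligo2b, and the difference between the classes was not called. Apod, Klk6 and Mbp were not called, with differences of 0.087 (SE 0.241), 0.13 (SE 0.248) and 0.076 (SE 0.202). Serpina3n was lower in each Rag1-/- white matter library than in both wild-type ones, but did not pass (-0.67, SE 0.176, adjusted p = 0.162, edgeR). Among 12 interferon-stimulated and 11 MHC class I genes, 0 were called, with medians of -0.32 and -0.13. The genotype difference itself did not differ between Oligo2b and the other Oligo1 and Oligo2 cells for any gene called by edgeR or DESeq2 (0.0%). At an unadjusted p under 0.05 there were 370 and 60 genes, smaller shares of the genes tested than that threshold gives by itself. Without wild-type white matter library 2, edgeR did call genes.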

How the data were processed

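Single living cells (SYTOX Blue-negative), prepared with actinomycin D, were sequenced by the authors with 10x 3′ v3.1 chemistry. The deposited UMI counts per gene and cell are whole numbers without normalization, made with Cell Ranger (labels: version 4, mm10; the study's methods: 3 versions), and were filtered by the authors on genes, UMIs and mitochondrial share. Cluster names are the authors', from a joint integration. No doublet caller was run here. Counts of Oligo2b cells were summed per library, over 17001 genes listed for both genotypes, and fitted in edgeR 4.0.16 (R 4.3.3): 4 groups, filterByExpr, TMM, two-sided quasi-likelihood F test, Benjamini-Hochberg adjustment at 0.05. Cell numbers were fitted without a trend. The study's scCODA was not used here. Comparisons with other cells held the library as a block. Named genes were those at the extremes of each comparison, without overlap of the groups, up to 8 per direction (12 for the profile, which uses a pseudocount of 1 CPM), the leading members of each list, and genes the study names. The members and lists were chosen with earlier results of these data known. Coordinates are from GENCODE on GRCm38. Where Rag1-/- gray matter has 1 library, it is assumed to vary like the others, and p-values over pooled mice measure the spread between libraries. Gray and white matter libraries of the same number share mice, which is where the pairing comes from; the residuals of paired wild-type libraries correlated across genes (r = 0.213, which 2 libraries per group give as 1 value for both pools). Alternatives were RLE scaling, no filter, DESeq2 1.42.0, fewer UMIs, other denominators, other comparison cells, the replicate block and leaving out each library. On simulated data, the tissue test recovered 71.4% of genes changed by 1 and 94.6% of those changed by 2 on the log2 scale, with 16 unchanged genes called, and the wild-type test 51% and 88.2%. Values of some genes are not reported here.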

Additional observations from a re-analysis of the deposited data

Results flagged for a closer look

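The white minus gray matter difference differed between Oligo2b and the other Oligo1 and Oligo2 cells for 38 genes by the edgeR interaction test. The leading 8, as the log2 difference in Oligo2b minus that in the other cells, were S100b (-0.84), Hopx (-0.77), Klk6 (-1.33), Enpp6 (-0.56), Aven (-0.68), Anxa5 (-0.74), Cdkn1c (-1.37) and Trf (-0.31). The makeup of those cells changed with tissue, with 4.64 to 5.66% Oligo2a and Oligo2c in gray and 24.6 to 31.3% in white matter. Against Oligo1 cells alone, S100b, Hopx, Enpp6, Aven, Anxa5 and Trf had the opposite sign, while Klk6 and Cdkn1c kept theirs. The share of Oligo2b among all cells went in opposite directions in the genotypes, with every wild-type white matter library below and every Rag1-/- white matter library above the gray matter of its genotype; the Rag1-/- means differed by 2.37 percentage points, and the interaction in edgeR was not called (adjusted p = 0.277). Mog and H2-K1 also had opposite directions in all libraries of the genotypes, with Rag1-/- differences of 0.069 and -0.15, and neither interaction was called (adjusted p = 0.9999 in edgeR for both).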

How the results depend on the processing

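Among the shares, the tissue difference lost its call against all cells (-0.25, and -0.94 in wild-type) and with the replicate block (-0.88 and -1.24), and the genotype difference gained one among Oligo2 cells (0.14). Without single libraries, the shares ranged from -0.99 to -0.74 (tissue), -1.51 to -1.02 (wild-type), 0.35 to 0.85 (genotype) and 0.55 to 1.05 (interaction). With no filter on low counts, calls numbered 322 for tissue, 110 in wild-type, 176 for genotype, 8 for the interaction, and 64 and 5 for the tissue and genotype differences from other cells. The replicate block gave 425, 216 and 2 calls for tissue, wild-type and interaction, with 1 residual degree of freedom, and could not be fitted for genotype. DESeq2 gave 28 in wild-type and 13 against other cells. The comparison of tissue with other cells gave 15 with cells under 20000 UMIs, 125 against all other oligodendrocytes, 103 against Oligo1 cells alone and 0 with no replicate block. For genotype it gave 2 and 1 against these cells. Against Oligo1 cells alone S100b (0.85), Hopx (0.095), Enpp6 (0.27), Aven (0.51), Anxa5 (0.20) and Trf (0.026) changed sign. The cause of these shifts was not tested. Without single libraries, calls ranged from 32 to 317 (tissue), 1 to 65 (wild-type), 38 to 153 (genotype), 0 to 7 (interaction), and 21 to 66 and 0 to 34 (tissue and genotype against other cells). Tissue and interaction could not be fitted without Rag1-/- gray matter library 1. Over 69 named genes, 717 alternative values kept the call and direction, 110 lost and 4 gained the call, and these 6 changed sign. Wild-type libraries 1, with 48 and 70 cells, limit the precision for low genes.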
